A study of Rattus norvegicus with 23 samples.

Results

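Leukocyte lineage genes were followed across 6 regions of the rat heart and great vessels. The list holds 40 genes that mark T cells, B cells, natural killer (NK) cells, macrophages and monocytes, neutrophils, antigen presentation and the pan-leukocyte protein CD45, with 3 Toll-like receptors. A gene was found on the array through the transcript accession of its probes, and 37 of the 40 were measured, among 16544 genes with a symbol and 15875 that were tested. No probe matched *Cd79a* or *Ms4a1*. The single probe of *Cd5*, a T cell surface protein, lacked a value on 1 array and was removed. On the other 22 arrays *Cd5* lay between 2.80 and 4.89 on the log2 scale and was well above background on 7.

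Leukocytes are blood-borne and tissue-resident cells of the immune system. T cells recognise antigen through a receptor coupled to the CD3 chains and to the kinases LCK and ZAP70, while NK cells and cytotoxic T cells kill targets with perforin and granzymes released from granules. Macrophages reside in the healthy heart, where they take up debris, and express complement C1q, the receptor of colony-stimulating factor 1 and scavenger receptors.

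RNA came from male Wistar rats, 12 in all, aged 8 to 11 weeks, with no genetic change or treatment compared, and all were under pentobarbital anaesthesia with heparin when the tissue was taken. The groups were left atrium next to the pulmonary vein (LA), left ventricle (LV), right ventricular free wall (RV), the sinoatrial node region (SA), pulmonary vein (PV) and pulmonary artery (PA), with 4 arrays each and 3 for RV. Each SA sample pooled tissue of 2 rats, and LV and RV together are called V (7 arrays). Which samples shared an animal was not given, and as each LV was cut into pieces that served as samples, LV arrays may share a heart, so the p-values measure only the spread between these arrays. The levels below are log2(signal + 1) of the scaled signal, given as mean ± SD, and levels of different genes are not compared with each other.

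The labels were checked on genes that mark the regions. *Irx4*, a ventricular transcription factor, was 12.11 ± 0.12 in LV (n = 4) and 11.98 ± 0.09 in RV (n = 3) and at most 5.20 on average elsewhere. *Sln*, sarcolipin of atrial muscle, averaged 17.34 to 17.85 in LA, SA and PV, and at most 8.92 in V and PA. *Shox2*, a sinoatrial transcription factor, averaged 11.08 in SA and 10.71 in PV against 7.58 in LA, and so does not tell SA from PV. *Myh11*, smooth muscle myosin, averaged 17.17 in PA and at most 13.62 elsewhere. Between 58.7% and 79.8% of probes per array were well above background. The 11 arrays of the first row of the slides (72.7% to 79.8%) exceeded the 12 of the second row (58.7% to 69.4%).

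Of the 37 measured genes, 22 were well above background on all 23 arrays and 15 on only some. A gene was called at an adjusted p below 0.05 in limma (Benjamini-Hochberg over all genes tested), and 32 of the 37 differed among the 6 regions, against 65.4% of all genes. *Cd3e*, *Cd4*, *Cd79b*, *Cd163* and *Marco* were not called. By regional mean, 23 of the 37 genes were highest in LV or RV and 10 in PA. The lowest region was PA for 13 genes, PV for 11 and SA for 10. A bulk array cannot tell fewer cells of a type from less RNA per cell.

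LA and V differed in 27 of the 37 genes, against 36.0% of all genes. Of these, 24 were lower in LA, against 18.8% of all genes, and 3 were higher in LA, against 17.2%. The median difference, LA minus V, was -0.71 over the 37 genes and -0.08 over all genes. PV was lower than LA in 14 genes and higher in 0, against 13.7% of all genes called, 6.61% lower and 7.13% higher. The median was -0.43 over the 37 genes and -0.04 over all genes. SA differed from LA in 12 genes, 11 of them lower and 1 higher, against 15.5% of all genes, 8.38% lower and 7.16% higher, with a median of -0.35 over the 37 genes and 0.00 over all genes. PA differed from the mean of the other 5 regions in 26 genes, 10 higher and 16 lower, where 60.0% of all genes were called, 32.0% higher and 28.1% lower. The median there was -0.16 against 0.05 over all genes. PV and SA differed in 1 gene, *Cd3d*, lower in PV (-0.45, lost without PV replicate 1, 2 or 4 or SA replicate 1, 2 or 3, at -0.48 to -0.41), where 3.67% of all genes were called, 0.863% lower and 2.81% higher in PV. LV and RV differed in 0 of 37, where 0.535% of all genes were called (0.309% higher and 0.227% lower in LV). At an unadjusted p below 0.05 in limma, 2 of 37 members passed between LV and RV, *Cd74* and *Lyve1*. That is about the number this threshold lets pass by chance, and neither was called. With another background correction (normexp) 1 member, *Prf1*, was called. These comparisons share arrays and one estimate of the spread.

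**Figure D1:**
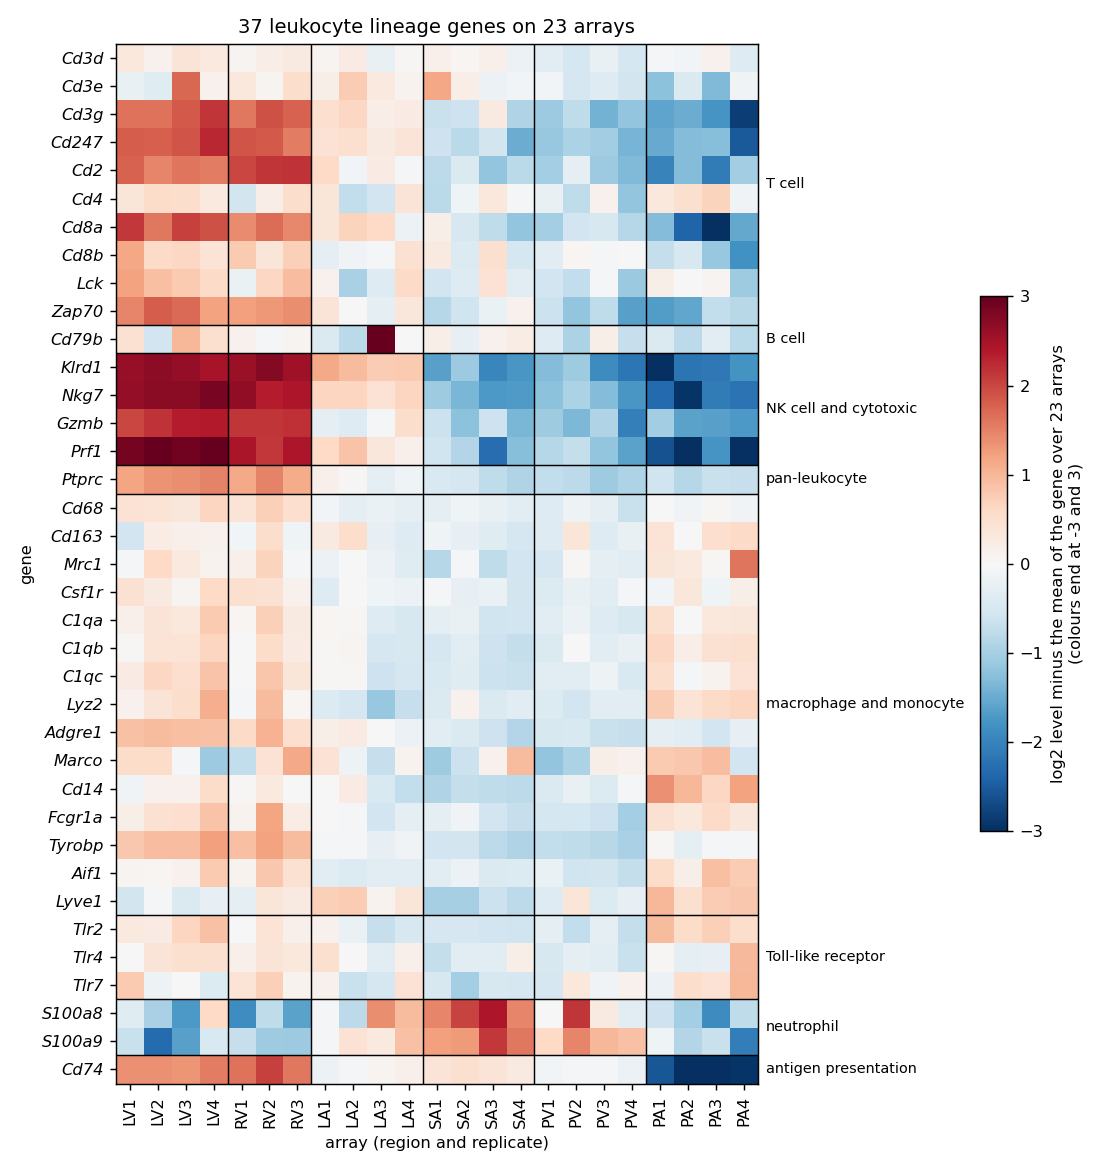
Heat map of the 37 measured leukocyte genes (rows, by class) on the 23 arrays (columns, by region); colour gives the log2 level minus the mean of that gene over all arrays, and colours end at -3 and 3. The NK cell genes and most T cell genes are red in LV and RV and blue in SA, PV and PA, many macrophage genes are red in both V and PA, and the 2 neutrophil genes are red in SA.

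All 4 NK cell and cytotoxic genes were lower in LA than in V (18.8% of all genes). Against LA they were lower again in both SA (8.38%) and PV (6.61%), and PA was below the mean of the remaining regions for each (28.1%). *Nkg7*, a membrane protein of cytotoxic granules, was 11.91, 11.99, 11.98 and 12.14 in LV and 11.93, 11.64 and 11.70 in RV. In LA it was 9.92, 9.92, 9.71 and 9.93, and in PA 6.96, 6.35, 7.19 and 7.07. SA (8.21, 7.91, 7.55 and 7.57) and PV (8.06, 8.33, 7.99 and 7.53) lay between LA and PA. Every V array was thus above every LA array, every LA array above every SA and PV array, and those above every PA array, while SA and PV overlapped. The difference was -2.01 ± 0.16 (SE) for LA minus V (adjusted p = 9.05e-09), or 4.04-fold lower in LA. It was -2.06 ± 0.18 for SA minus LA (adjusted p = 5.27e-07) and -1.89 ± 0.18 for PV minus LA (adjusted p = 1.47e-06).

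*Prf1*, perforin, which makes pores in target cells, was 10.21, 10.39, 10.25 and 10.51 in LV and 9.80, 9.47 and 9.77 in RV. LA followed with 7.94, 8.20, 7.69 and 7.51, and PA had 4.74, 4.32, 5.58 and 3.26, where 2 of 4 arrays were well above background. LV lay above RV on every array, yet the difference of 0.66 was not called. In LA it was 4.52-fold lower than in V, a difference of -2.18 ± 0.34 (adjusted p = 3.91e-05). *Gzmb*, granzyme B, a protease that enters target cells, averaged 9.20 ± 0.17 in LV and 9.14 ± 0.03 in RV, 6.92 ± 0.40 in LA, 5.63 ± 0.51 in PV and 5.47 ± 0.31 in PA, with SA arrays from 5.59 to 6.36. The lower SA level of *Gzmb* (-0.92) was no longer called without SA replicate 4 (-0.78, adjusted p = 0.0522) or in a fit of the SA and LA arrays alone. Both *Gzmb* probes gave the same order of V, LA and the remaining regions. The dimmer probe was well above background on only 1 of 4 SA, 1 of 4 PV and 0 of 4 PA arrays.

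*Klrd1*, the CD94 chain of NK receptors, was 7.62, 7.71, 7.67 and 7.50 in LV, 7.60, 7.78 and 7.57 in RV and 6.16, 5.98, 5.77 and 5.80 in LA. On all 12 arrays of SA, PV and PA it was not well above background, with 3.41 ± 0.37, 3.41 ± 0.51 and 2.74 ± 0.50. Taking for those arrays the dimmest signal that passed the background test, it was at least 2.50-fold lower in SA and at least 2.65-fold lower in PV than in LA. Against V, LA differed by -1.71 ± 0.22 (adjusted p = 3.40e-06). With normexp background correction the differences from LA shrank to -0.55 in SA and -0.53 in PV and were still called.

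**Figure D2:**
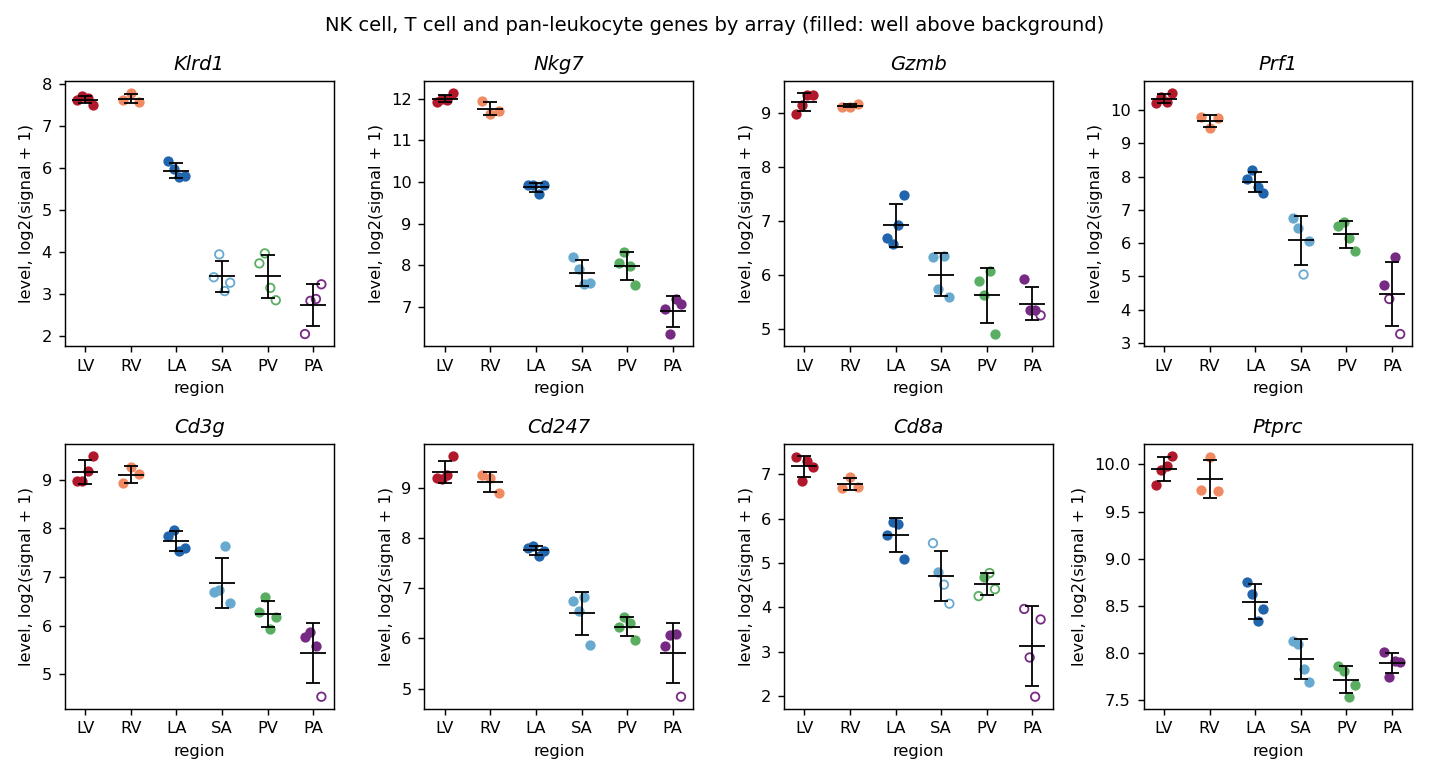
Level, log2(signal + 1), of 8 lymphocyte and pan-leukocyte genes on each array by region; filled points are well above background and open points are not, and black marks give mean and SD. LV and RV lie above LA in every panel, LA has the next highest mean, and *Klrd1* points are open in SA, PV and PA.

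Promoter sequence (250 bases before to 50 after the gene start) was listed by RefSeq, build GRCr8, for 30 of the 40 genes, including 3 of the 4 NK cell genes, which move together across the regions. TGTGGT, the core bound by RUNX factors, was searched on both strands. It occurs in the promoters of all 3 (*Nkg7*, *Gzmb* and *Prf1*), in 2 of 9 T cell promoters, in 1 of 11 macrophage promoters, in that of *S100a9*, thus in 7 of 30 in all, and in 17.3% of 33469 rat promoters. The sequences are shown with matches in capitals, *Nkg7* from chr1:102981247-102981546 on the plus strand, *Gzmb* from chr15:34462420-34462719 on the minus strand and *Prf1* from chr20:29788790-29789089 on the plus strand. *Gzmb* holds 3 matches and the others 1 each. A match describes letters only, and binding was not measured.
Nkg7: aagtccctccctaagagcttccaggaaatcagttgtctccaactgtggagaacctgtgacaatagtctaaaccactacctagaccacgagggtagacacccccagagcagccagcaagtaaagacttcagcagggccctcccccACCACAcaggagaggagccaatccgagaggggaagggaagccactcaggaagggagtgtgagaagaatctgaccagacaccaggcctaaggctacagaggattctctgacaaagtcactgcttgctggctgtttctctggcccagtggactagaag
Gzmb: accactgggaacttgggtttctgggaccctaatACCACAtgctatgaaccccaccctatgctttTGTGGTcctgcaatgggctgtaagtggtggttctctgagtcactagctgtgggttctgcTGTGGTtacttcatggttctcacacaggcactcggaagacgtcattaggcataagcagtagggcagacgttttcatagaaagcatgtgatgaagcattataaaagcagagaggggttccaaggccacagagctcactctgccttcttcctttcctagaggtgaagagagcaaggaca
Prf1: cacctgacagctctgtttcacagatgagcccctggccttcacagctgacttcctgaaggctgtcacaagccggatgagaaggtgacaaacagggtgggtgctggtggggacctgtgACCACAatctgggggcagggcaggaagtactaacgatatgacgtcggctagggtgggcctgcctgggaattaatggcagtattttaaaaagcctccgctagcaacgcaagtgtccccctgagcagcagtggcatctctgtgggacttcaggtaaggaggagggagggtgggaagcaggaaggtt

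Of the 10 measured T cell genes, 7 were lower in LA than in V (18.8% of all genes), 6 lower in PV than in LA (6.61%), 3 lower in SA than in LA (8.38%) and 7 lower in PA than in the other regions (28.1%). None was higher in any of these comparisons. *Cd3g*, a chain of the T cell receptor complex, was 8.98, 8.98, 9.19 and 9.49 in LV and 8.93, 9.26 and 9.12 in RV. It was 7.85, 7.98, 7.54 and 7.60 in LA, 6.69, 6.74, 7.63 and 6.46 in SA and 6.27, 6.58, 5.92 and 6.17 in PV, and PA was lowest with 5.76, 5.86, 5.58 and 4.54. V did not overlap LA, LA overlapped SA through SA replicate 3, and PA lay below all other regions. LA minus V was -1.39 ± 0.23 (adjusted p = 9.38e-05), and PV minus LA -1.50 ± 0.26 (adjusted p = 6.40e-04).

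*Cd247*, the zeta chain that carries the signal of the receptor, averaged 9.31 ± 0.22 in LV and 9.11 ± 0.19 in RV, 7.75 ± 0.09 in LA, 6.50 ± 0.43 in SA, 6.23 ± 0.19 in PV and 5.71 ± 0.59 in PA. LA lay below V by 1.46 (adjusted p = 1.46e-05) with no overlap. *Zap70*, the kinase that binds this chain, averaged 10.45 ± 0.27 in LV, 10.21 ± 0.07 in RV, 9.01 ± 0.32 in LA and 7.70 ± 0.49 in PA, and was called lower in LA than in V and in PV than in LA. *Cd2*, an adhesion receptor, averaged 5.66 ± 0.13 in LV, 6.17 ± 0.09 in RV and 4.25 ± 0.32 in LA, and passed the background test on 1 of the 12 arrays of SA, PV and PA. Its calls of SA and PV against LA rest on dim spots and were lost with normexp correction (0.14 and -0.04).

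*Cd8a* and *Cd8b* encode the CD8 coreceptor of cytotoxic T cells. *Cd8a* was 7.38, 6.84, 7.31 and 7.17 in LV and 6.69, 6.93 and 6.71 in RV, against 5.64, 5.93, 5.87 and 5.09 in LA. It passed the background test on 1 of 4 arrays of SA, 1 of 4 of PV and none of PA. In PA it was at least 2.60-fold lower than the mean over all arrays outside PA. That bound does not hold against SA (4.71 ± 0.57) or PV (4.53 ± 0.24) alone. *Cd8b* differed less, with 7.34 ± 0.33 in LV, 6.66 ± 0.31 in LA and 5.61 ± 0.59 in PA. *Cd4*, the helper T cell coreceptor that rat macrophages also carry, ranged only from 6.23 (PV) to 7.16 (LV) in regional mean and was not called.

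The remaining T cell genes varied little or were dim. *Lck*, the kinase that starts T cell receptor signalling, averaged 6.52 ± 0.26 in LV, 5.49 ± 0.67 in LA and 5.03 ± 0.44 in PV. *Cd3d* ranged from 9.67 ± 0.15 in PV to 10.36 ± 0.11 in LV, a span of 0.69, while *Cd3g*, a partner of *Cd3d* in the same complex, spanned 3.72. *Cd3e* was well above background on 1 of 23 arrays. Of the calls for LA against V, those of *Lck* (-0.82) and *Cd8b* (-0.64) were lost when single arrays were left out, 12 of 23 for *Lck* and 6 of 23 for *Cd8b*, at -0.83 to -0.55 and at -0.62 to -0.55. The PA call of *Cd3e* (-0.94) was lost without PA replicate 1 (-0.79) or PA replicate 3 (-0.76) and with normexp correction (-0.08). With dim spots raised to the dimmest signal that passed the background test, its sign turned (0.0094). The SA call of *Cd3g* (-0.86) was lost without LA replicate 1 (-0.83) or 2 (-0.79) or SA replicate 1 (-0.80), 2 (-0.82) or 4 (-0.72). The PV call of *Cd8a* (-1.10) was lost in 6 of 23 such fits, those without LA replicate 1, 2 or 3 or PV replicate 1, 2 or 4, and with normexp correction (-0.16). Over the 6 regions *Cd3e* was called in 5 of 23 such fits and *Cd4* in 1. With the row on the slide as a block, the limma calls of *Cd3g* in SA (-0.85, adjusted p = 0.0519) and *Cd8a* in PV (-1.12, adjusted p = 0.0554) were lost, and with slide as a block that of *Cd3g* (-0.83). LA had 3 of 4 arrays in the first row, SA and PV 1 of 4 each. *Cd3d* was lost for PV against LA without LA replicate 2 (-0.36) or PV replicate 4 (-0.39).

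B cells are covered by *Cd79b* alone, a chain of the B cell receptor. It was 3.47, 3.09, 7.55 and 3.90 in LA and 4.37, 3.32, 4.89 and 4.37 in LV, and was well above background on 5 of 23 arrays. One array, LA replicate 3, stood far above the others. Regions were not called (adjusted p = 0.490), and without that array they were (adjusted p = 0.0403, span 0.93).

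*Ptprc*, the CD45 phosphatase on nearly all leukocytes, was 9.79, 9.94, 9.99 and 10.09 in LV and 9.73, 10.07 and 9.72 in RV. It was 8.76, 8.62, 8.34 and 8.47 in LA, and averaged 7.94 ± 0.21 in SA, 7.72 ± 0.15 in PV and 7.90 ± 0.11 in PA. V lay above LA and LA above SA without overlap, while SA, PA and PV overlapped. Its level was 2.55-fold lower in LA than in V, a difference of -1.35 ± 0.11 (adjusted p = 7.54e-09), and PV minus LA was -0.83 ± 0.12 (adjusted p = 1.20e-04).

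The 15 macrophage and monocyte genes took another course. In LA against V, 10 were lower (18.8% of all genes) and *Lyve1* was higher (17.2%). In PA against the other regions, 9 were higher (32.0% of all genes) and only *Adgre1* was lower (28.1%), while the called T cell and NK cell members and *Ptprc* were lower. Their summed signal was 44548 to 70333 on LV arrays, 43741 to 68391 on RV arrays and 44747 to 58295 on PA arrays. It was 26810 to 37127 in LA, 26161 to 33493 in SA and 28830 to 31608 in PV, so that each V and PA array exceeded each LA, SA and PV array. That sum follows mostly the brightest genes.

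*Tyrobp*, the DAP12 adaptor of myeloid and NK cell receptors, was 13.02, 13.13, 13.12 and 13.43 in LV and 13.11, 13.40 and 13.16 in RV. It was 12.17, 12.16, 11.96 and 12.10 in LA and 12.23, 11.92, 12.15 and 12.13 in PA, and averaged 11.50 ± 0.17 in SA and 11.38 ± 0.11 in PV. V lay above LA and PA, which overlapped each other, and those lay above SA and PV. LA minus V was -1.10 ± 0.09 (adjusted p = 2.20e-08), SA minus LA -0.60 ± 0.11 (adjusted p = 6.40e-04) and PV minus LA -0.72 ± 0.11 (adjusted p = 1.35e-04). *Adgre1*, the F4/80 antigen of macrophages, had the same V to LA to SA and PV steps, with 8.90 ± 0.03 in LV, 8.71 ± 0.29 in RV, 8.08 ± 0.20 in LA, 7.65 ± 0.15 in PA, 7.44 ± 0.24 in SA and 7.43 ± 0.13 in PV.

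The complement genes *C1qa*, *C1qb* and *C1qc* encode the 3 chains of C1q. *C1qb* was 13.35, 13.73, 13.72 and 13.96 in LV, 13.36, 13.41, 12.83 and 12.85 in LA, 12.81, 12.98, 12.70 and 12.61 in SA and 13.95, 13.52, 13.79 and 13.82 in PA. The LV and LA ranges overlapped and the SA arrays lay below every LV and PA array. LA minus V was -0.53 ± 0.14 for *C1qb* (adjusted p = 0.0064), -0.58 ± 0.15 for *C1qa* and -0.74 ± 0.17 for *C1qc*, and all 3 were called. PA minus the other regions was 0.52 for *C1qb*, 0.32 for *C1qa* and 0.28 for *C1qc*, of which the last was not called. The *C1qa* call was lost without PA replicate 1 (0.26), PA replicate 3 (0.31), PA replicate 4 (0.30) or RV replicate 1 (0.29).

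*Lyz2*, lysozyme of macrophages and granulocytes, was 12.89, 12.81, 12.17 and 12.60 in LA, 13.43, 13.69, 13.83 and 14.38 in LV and 14.07, 13.71, 13.87 and 13.95 in PA. Every PA array exceeded every LA array, as did every LV array. The difference of LA from V was -1.11 ± 0.20 (adjusted p = 1.51e-04), and all 3 *Lyz2* probes were lower in LA. The brightest probe was highest in PA, and the other 2 were higher in LV (12.82 and 10.90) than in PA (12.63 and 10.57). *Aif1*, the calcium-binding protein IBA1, averaged 11.09 ± 0.04 in LA, 11.71 ± 0.35 in LV, 11.91 ± 0.35 in RV and 12.04 ± 0.31 in PA, and its 2 probes were both lowest in PV, while the dimmer one was highest in RV (11.18, with 11.02 in PA). *Cd68*, a lysosomal protein, averaged 9.94 ± 0.13 in LV, 10.02 ± 0.16 in RV, 9.27 ± 0.09 in LA and 9.43 ± 0.07 in PA, and *Csf1r*, the receptor for the macrophage growth factor, 9.17 ± 0.23, 9.18 ± 0.19, 8.65 ± 0.17 and 8.89 ± 0.22. Neither gene was called in PA against the other regions. *Fcgr1a*, the high-affinity IgG receptor, averaged 10.82 ± 0.28 in LV, 10.11 ± 0.26 in LA, 9.65 ± 0.23 in PV and 10.75 ± 0.12 in PA, and its PA call was lost without PA replicate 3 (0.43).

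*Cd14*, the coreceptor for bacterial lipopolysaccharide, was highest in PA with 11.09, 10.69, 10.33 and 10.92. It was 9.61, 9.83, 9.84 and 10.25 in LV, 9.70, 9.95, 9.26 and 8.97 in LA and 8.80, 8.98, 8.94 and 8.93 in SA. All PA arrays exceeded all others. The 4 SA arrays were lowest, except that LA replicate 4 lay among them. PA minus the other regions was 1.25 ± 0.15, 2.39-fold higher (adjusted p = 3.15e-07).

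*Lyve1*, the hyaluronan receptor of a resident macrophage subset and of lymphatic endothelium, lay between 10.38 and 11.05 in LA and was 11.29, 10.75, 11.05 and 11.10 in PA. It was 9.72, 10.23, 9.85 and 10.04 in LV, 10.02, 10.65 and 10.56 in RV and 9.28, 9.28, 9.63 and 9.49 in SA. SA lay below all other regions, LA and LV did not overlap, and LA and RV did. It was the only macrophage gene higher in LA than in V, by 0.58 ± 0.17 (adjusted p = 0.0115), which was lost without LA replicate 2 (0.49, adjusted p = 0.0545). SA minus LA was -1.35 ± 0.19 (adjusted p = 9.54e-05), and PV minus LA -0.65 ± 0.19, a call lost without LA replicate 1 or 2 or PV replicate 1, 3 or 4 (-0.63 to -0.56). Of 5 tested lymphatic endothelium genes, 3 were lower in SA than in LA (8.38% of all genes). In LA against V, 1 was higher (17.2%) and 1 lower (18.8%), near the shares of all genes. *Pdpn* averaged 11.56 ± 0.18 in LA, 9.96 ± 0.23 in LV and 10.13 ± 0.16 in SA, and *Flt4* 10.79 ± 0.19 in PA against at most 8.71 on average elsewhere. The summed signal of the 5 genes was 20089 to 24290 in LA, and LV (19879 to 23087) and RV (19121 to 21503) overlapped it. It was 14631 to 17994 in SA and 14836 to 18070 in PA. The part of lymphatic cells in the *Lyve1* differences was not tested.

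*Cd163* and *Mrc1* are scavenger receptors of tissue macrophages. *Mrc1* averaged 7.07 ± 0.70 in PA, where replicate 4 was 8.10, and 5.94 ± 0.37 in SA. Its PA difference of 0.67 was 0.33 and no longer called without PA replicate 4 (adjusted p = 0.104). *Cd163* averaged 9.87 ± 0.26 in PA and 9.19 ± 0.16 in SA, and its PA difference of 0.44 was lost in 9 of 23 fits with 1 array left out, at 0.38 to 0.43. *Marco*, a scavenger receptor best known from alveolar macrophages, was well above background on 12 of 23 arrays and was not called in any comparison.

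**Figure D3:**
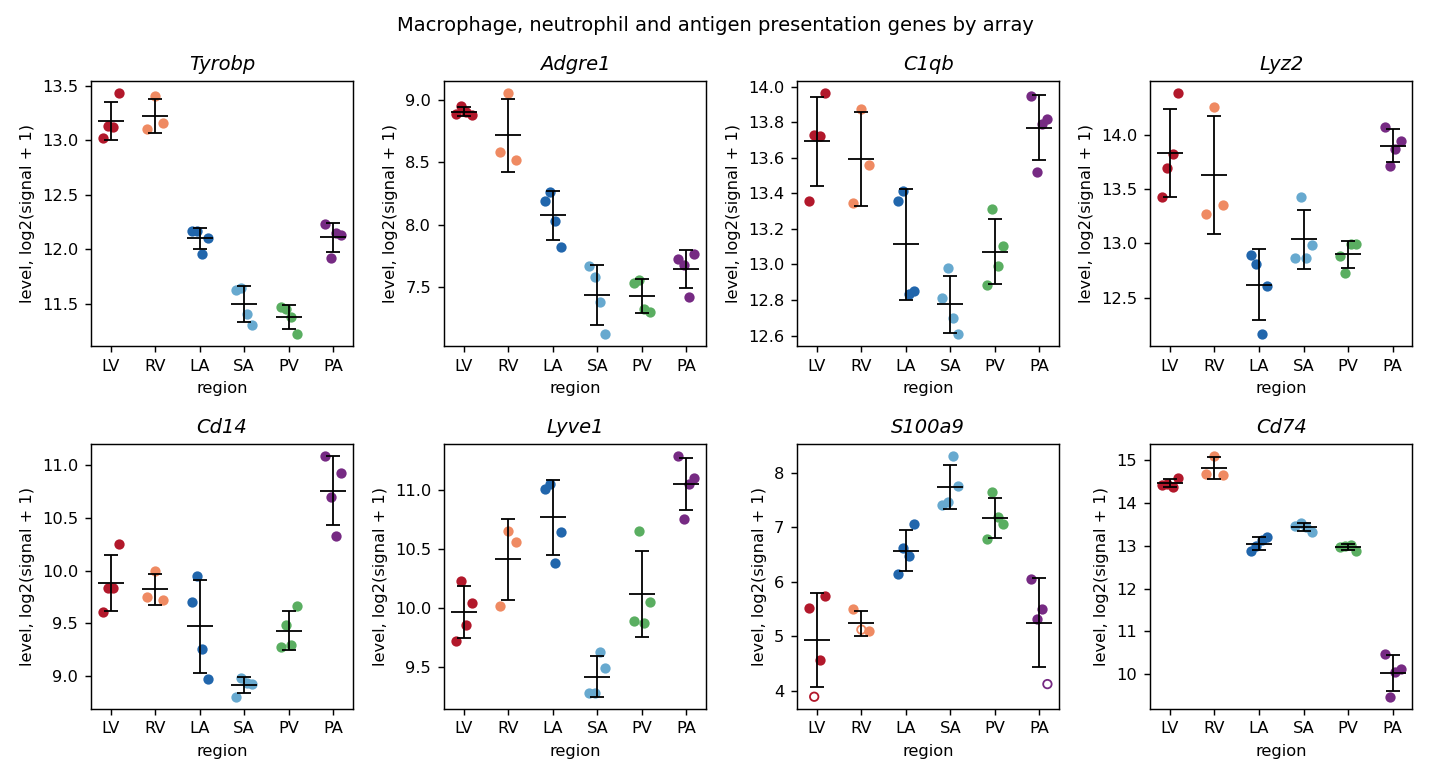
Level, log2(signal + 1), of 8 macrophage, neutrophil and antigen presentation genes on each array by region, drawn as in the plot of lymphocyte genes. *Cd14* is highest in PA, *Lyve1* is high in LA and PA and lowest in SA, *S100a9* is highest in SA, and *Cd74* has its 4 PA points near 10.04, below all others.

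GAGGAA, the core of the site for the myeloid factor PU.1, was searched on both strands of the same promoters. It occurs in 8 of the 11 macrophage promoters listed, in 3 of 9 T cell promoters and in 0 of 3 NK cell promoters. Among all listed members it occurs in 17 of 30, and in 27.6% of all promoters. The other motifs searched were ATTGG (11 of 30 listed members, 37.5% of all promoters), TATAAA (3 of 30, 14.2%) and CACCC (18 of 30, the 3 NK cell promoters among them, and 54.9%). ATTGG occurs in 7 of the 11 macrophage promoters, so a high count there is not particular to GAGGAA. One promoter each of a complement, a lysosomal and a lysozyme gene is shown with GAGGAA or its reverse complement in capitals, *C1qb* from chr5:154407778-154408077 on the minus strand, *Cd68* from chr10:54882392-54882691 on the minus strand and *Lyz2* from chr7:54797962-54798261 on the minus strand.
C1qb: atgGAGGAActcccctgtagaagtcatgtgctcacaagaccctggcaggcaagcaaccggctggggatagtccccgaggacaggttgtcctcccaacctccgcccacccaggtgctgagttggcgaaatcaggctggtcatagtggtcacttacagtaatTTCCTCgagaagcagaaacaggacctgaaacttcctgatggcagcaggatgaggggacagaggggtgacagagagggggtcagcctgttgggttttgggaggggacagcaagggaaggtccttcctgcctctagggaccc
Cd68: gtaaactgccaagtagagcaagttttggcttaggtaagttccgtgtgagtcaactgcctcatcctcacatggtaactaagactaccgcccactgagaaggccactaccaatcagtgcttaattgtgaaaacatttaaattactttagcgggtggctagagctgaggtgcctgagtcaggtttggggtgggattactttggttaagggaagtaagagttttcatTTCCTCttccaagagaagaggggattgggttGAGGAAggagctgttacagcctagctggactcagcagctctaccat
Lyz2: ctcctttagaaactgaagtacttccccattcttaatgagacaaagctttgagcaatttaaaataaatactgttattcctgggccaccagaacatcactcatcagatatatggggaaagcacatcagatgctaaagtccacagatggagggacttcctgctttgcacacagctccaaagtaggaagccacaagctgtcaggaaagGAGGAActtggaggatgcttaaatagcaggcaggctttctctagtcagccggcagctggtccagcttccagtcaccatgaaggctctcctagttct

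Toll-like receptors sense microbial molecules. *Tlr2*, for bacterial lipopeptides, averaged 9.23 ± 0.19 in PA, 9.07 ± 0.30 in LV, 8.74 ± 0.21 in RV, 8.23 ± 0.36 in LA, 8.04 ± 0.26 in PV and from 7.94 to 8.05 on the SA arrays. It was lower in LA than in V by 0.67 (adjusted p = 0.00206) and higher in PA than in the other regions (0.82, adjusted p = 2.66e-05). *Tlr4*, for lipopolysaccharide, spanned 0.77 between PV and LV. *Tlr7*, for single-stranded RNA, was well above background on 6 of 23 arrays. Neither was called in a comparison of regions, and the calls over all 6 regions (adjusted p = 0.0376 and 0.0342) were lost in 12 and 9 of 23 fits with 1 array left out and with slide as a block (0.0617 and 0.0796), that of *Tlr7* also with row as a block (0.0504).

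The neutrophil genes *S100a8* and *S100a9* encode calprotectin, a calcium-binding protein of granulocytes and monocytes. *S100a9* was 7.41, 7.47, 8.31 and 7.76 in SA and 6.78, 7.65, 7.18 and 7.06 in PV. It was 6.13, 6.61, 6.48 and 7.05 in LA, 5.52, 3.89, 4.55 and 5.74 in LV and 5.50, 5.12 and 5.08 in RV. SA lay above LA, and LA above V, with no overlap. LA minus V was 1.49 ± 0.35 (adjusted p = 0.00209), where 3 of 4 LV and 2 of 3 RV arrays were well above background. SA minus LA was 1.17 ± 0.39 with an adjusted p of 0.0498, and this call was lost in 17 of 23 fits with 1 array left out, at 0.98 to 1.28. It was also lost with the deposited normalized values (adjusted p = 0.0519), when dim genes were kept in the fit (0.052) and with slide as a block (0.0587). In PA it was lower than in the other regions by 1.08, and without PA replicate 4 by 0.71 (adjusted p = 0.0503).

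*S100a8* was well above background on 6 of 23 arrays, 3 in LA, 2 in SA and 1 in PV. It was 5.40, 5.95, 6.35 and 5.40 in SA and 3.55, 2.96, 2.19 and 4.53 in LV. As no V array was well above background, LA was at least 1.07-fold higher than V. The LA call was lost without LA replicate 3 (1.06) or LA replicate 4 (1.21) and in 4 other such fits, and had the opposite sign after normexp correction (-0.02, adjusted p = 0.925). The PA call (-1.22) was lost without PA replicate 3 (-0.95) and with normexp correction (-0.17). It was also lost with dim spots raised to the dimmest signal that passed the background test (-0.46).

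The erythroid genes, which come with red blood cells, had a like order to *S100a9*. Their summed signal (8 genes, 7 or 8 well above background on each array) was 85913 to 161847 in SA and 82799 to 118342 in PV. It was 28697 to 49178 in LA, 10101 to 18258 in LV, 7892 to 11042 in RV and 18539 to 132975 in PA, where replicate 1 was highest. *Hbb*, a beta globin, averaged 10.81 ± 0.44 in SA, 8.47 ± 0.44 in LA and 5.93 ± 0.42 in RV, and *Slc4a1*, the band 3 anion exchanger, 6.30 ± 0.14, 5.91 ± 0.25 and 7.60 ± 0.19. In LA against V, 6 of 8 erythroid genes were higher (17.2% of all genes) and 1 lower (18.8%). Heart and lungs had been perfused before dissection to wash out most of the blood, and the part of retained blood in the leukocyte values was not tested.

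*Cd74*, the invariant chain that loads MHC class II molecules, was 14.67, 15.09 and 14.63 in RV and 14.42, 14.43, 14.37 and 14.58 in LV. It was 13.45, 13.54, 13.43 and 13.31 in SA, 12.88, 12.99, 13.12 and 13.20 in LA and 12.98, 12.99, 13.02 and 12.87 in PV, and 10.48, 9.48, 10.06 and 10.12 in PA. PA lay far below all others, RV above LV, LV above SA, and SA above LA and PV, which overlapped each other. PA minus the other regions was -3.70 ± 0.12, 13.0-fold lower (adjusted p = 5.47e-16), and LA minus V was -1.58 ± 0.13, 2.98-fold lower (adjusted p = 1.99e-08). SA minus LA (0.38, adjusted p = 0.0979) was not called. Of 13 tested genes of MHC class II and dendritic cells, 10 were lower (18.8% of all genes) and 1 higher (17.2%) in LA than in V, and 7 were lower (28.1%) and 2 higher (32.0%) in PA than elsewhere. *RT1-DMb*, which helps to load class II molecules, averaged 11.49 ± 0.10 in LV, 11.60 ± 0.14 in RV, 9.82 ± 0.22 in LA, 10.25 ± 0.10 in SA and 9.96 ± 0.12 in PA. *Cd1d1*, which presents lipids, was higher in LA (12.48 ± 0.09) than in LV (11.94 ± 0.10), and was 8.87 ± 0.15 in PA.

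**Figure D4:**
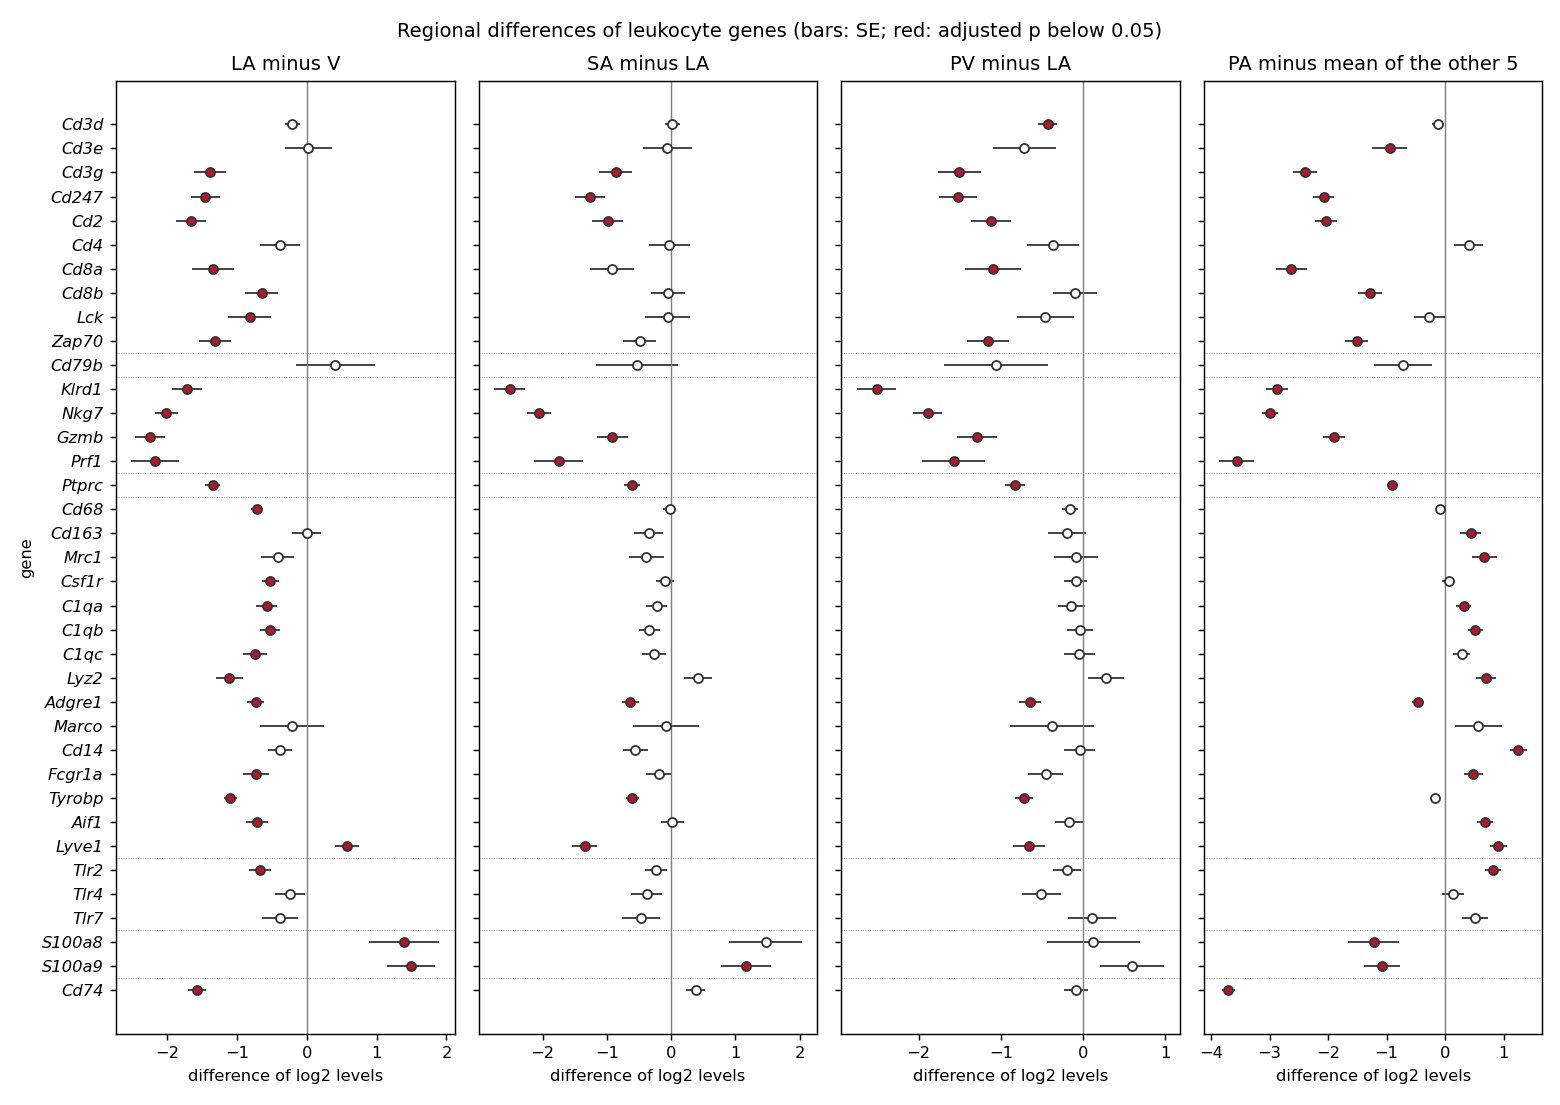
Difference of log2 levels of the 37 genes (rows) in 4 comparisons (panels), with the SE as bars; red points have an adjusted p below 0.05 in limma and white points do not. The NK cell genes lie left of 0 in all 4 panels, most macrophage genes lie left of 0 in LA minus V and right of 0 in the PA panel, and *S100a9* lies right of 0 for LA minus V and SA minus LA.

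Other genes of the same lineages, taken from textbook lists, were counted in the same fit. In LA against V, 12 of 14 tested pan-leukocyte genes were lower (18.8% of all genes) and 0 higher, with a median of -0.98 beside -0.08 over all genes. The same list was mixed elsewhere. Against LA, 5 were lower and 2 higher both in PV (6.61% and 7.13% of all genes) and in SA (8.38% and 7.16%). In PA, 7 were lower (28.1%) and 3 higher (32.0%) than in the other regions. *Coro1a*, an actin-binding protein of leukocytes, averaged 12.14 ± 0.25 in LV, 10.69 ± 0.20 in LA and 9.68 ± 0.19 in PA, and *Rac2*, a GTPase of blood cells, 11.11 ± 0.23, 10.11 ± 0.19 and 9.19 ± 0.17. Of 9 tested NK cell genes, 7 were lower in LA than in V (18.8% of all genes), 4 lower in SA (8.38%) and 4 lower in PV (6.61%) than in LA, and none was higher. *Gzmm*, granzyme M, averaged 10.60 ± 0.14 in LV, 9.43 ± 0.23 in LA and 7.79 ± 0.12 in PA, and *Xcl1*, a chemokine of activated lymphocytes, 10.30 ± 0.22, 8.64 ± 0.18 and 6.76 ± 0.59. *Klrb1*, an NK cell receptor, was well above background on 2 of 23 arrays.

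Of 15 tested genes of the T cell list, 5 were lower in LA than in V (18.8% of all genes), and 1 was lower in PV (6.61%) and 1 in SA (8.38%) than in LA, the latter 2 counts near those of all genes. In PA, 4 of the 15 were lower (28.1% of all genes) and 1 higher (32.0%), the lower count again near that of all genes. *Il2rb*, a chain of the receptors for interleukins 2 and 15, averaged 9.95 ± 0.15 in LV, 8.62 ± 0.18 in LA and 6.42 ± 0.33 in PA, and *Cd96*, a receptor of T and NK cells, 10.25 ± 0.20, 8.83 ± 0.31 and 8.06 ± 0.18. Of 11 tested B cell genes, 4 were lower in LA than in V (18.8% of all genes), and in SA against LA 3 were higher (7.16%) and 2 lower (8.38%), with a median of 0.32. *Fcer2*, the low-affinity IgE receptor, averaged 11.41 ± 0.38 in LV, 11.81 ± 0.30 in RV and 7.39 ± 0.73 in LA, and *Cd37*, a tetraspanin, 6.99 ± 0.10, 7.10 ± 0.12 and 5.88 ± 0.11. Of 4 tested thymocyte genes 1 was lower (18.8% of all genes) and 1 higher (17.2%) in LA than in V. *Rag2*, which recombines antigen receptor genes in thymocytes, was well above background on 2 of 23 arrays.

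Of 21 other macrophage genes, 8 were lower in LA than in V (18.8% of all genes), and 8 were higher and 3 lower in PA than elsewhere, where 32.0% of all genes were higher and 28.1% lower. *Fcer1g*, the common Fc receptor chain, averaged 12.48 ± 0.19 in LV, 11.16 ± 0.14 in LA and 11.26 ± 0.08 in PA, and *Folr2*, a folate receptor of resident macrophages, 11.44 ± 0.09, 10.83 ± 0.15 and 11.07 ± 0.10. Of 14 genes of ITAM signalling, the phosphotyrosine relay that *Cd247* and *Tyrobp* feed, 10 were lower (18.8% of all genes) and 2 higher (17.2%) in LA than in V. In PA against the other regions, 5 were lower (28.1%) and 2 higher (32.0%). *Lyn*, a kinase of this relay, was higher in LA (11.35 ± 0.10) than in LV (10.51 ± 0.08). Of 12 tested neutrophil genes, 1 was lower in LA than in V (18.8% of all genes) and 1 higher in SA than in LA (7.16%), both times *Il1b*, and 3 (*Il1b*, *Mmp8* and *Mmp9*) were lower in PA than elsewhere (28.1%), shares near or below those of all genes. *Il1b*, interleukin 1 beta, averaged 6.72 ± 0.59 in LV, 5.10 ± 0.48 in LA, 6.27 ± 0.20 in SA and 4.06 ± 0.80 in PA. *Mmp8*, a neutrophil collagenase, averaged 6.03 ± 0.51 in LV and 5.17 ± 0.71 in LA and was not called between LA and V. Of 9 mast cell genes, 3 were higher in SA (7.16% of all genes) and in PV (7.13%) than in LA. Among them was *Tpsab1*, a tryptase (7.89 ± 0.23 in SA, 8.06 ± 0.22 in PV, 6.61 ± 0.31 in LA).

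Markers of other cell types moved with the same regions. Blood endothelium was higher in V: of 7 tested genes 5 were lower (18.8% of all genes) and 0 higher (17.2%) in LA. Their summed signal was 64119 to 67846 in LV, 55175 to 59083 in RV, 31954 to 41778 in LA, 33453 to 39161 in SA, 31265 to 37117 in PV and 21627 to 41625 in PA. *Cdh5*, vascular cadherin, averaged 10.54 ± 0.23 in LV, 9.02 ± 0.14 in LA and 8.36 ± 0.29 in PA, and *Kdr*, a receptor for vascular growth factor, 14.11 ± 0.34, 12.82 ± 0.18 and 10.30 ± 0.29. All 7 were well above background on every array. The part of blood vessel content in the lymphocyte differences was not tested.

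**Figure D5:**
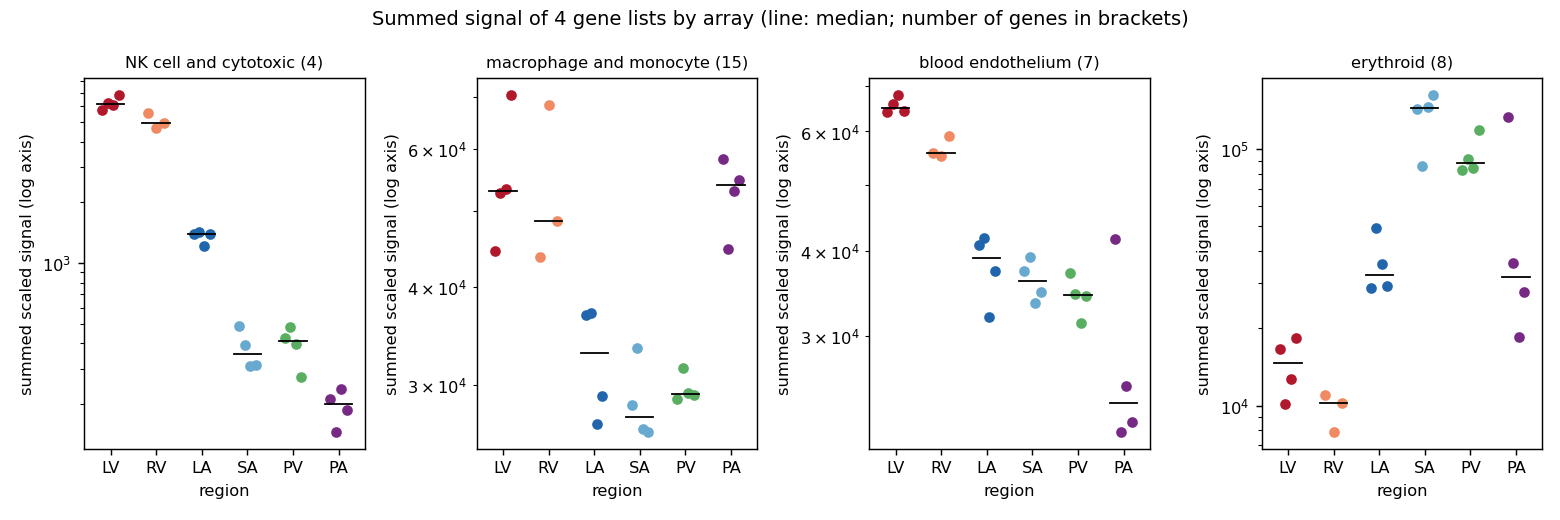
Summed scaled signal (log axis) of the 4 NK cell members, the 15 macrophage members, 7 blood endothelium genes and 8 erythroid genes on each array by region, with the median as a line. NK cell and endothelial sums are highest in LV and RV, macrophage sums are high in LV, RV and PA, and erythroid sums are highest in SA and PV apart from PA replicate 1.

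Muscle markers set PA apart. All 7 smooth muscle genes were higher there (32.0% of all genes), with a summed signal of 430772 to 504273 against at most 61327 elsewhere. All 7 tested cardiomyocyte genes were lower there (28.1%), with a summed signal of 28140 to 81633 against at least 935700 elsewhere. *Actn2*, of the cardiac Z-disc, averaged 6.96 ± 0.38 in PA against 13.29 or more elsewhere, and *Acta2*, smooth muscle actin, 15.73 ± 0.14 against 12.11 or less. Of 6 adipocyte genes, 4 were higher (32.0% of all genes) and 1 lower (28.1%) in PA than in the other regions. Their summed signal in PA (12384 to 18534) overlapped SA (11005 to 22439) and PV (8641 to 18423), and *Adipoq*, a hormone of fat cells, averaged 10.96 ± 0.43 in PA, 9.72 ± 1.17 in PV, 9.35 ± 0.51 in SA and 3.57 ± 0.71 in LV. Mesothelium was highest in LA (summed signal 18714 to 23142, and at most 10698 elsewhere). Of 9 lung epithelium genes, 3 were lower in LA than in V (18.8% of all genes). *Epcam*, which defines epithelium, was well above background on 1 of 23 arrays, and *Cdh1*, an epithelial cadherin, averaged 6.49 ± 0.49 in PV and at most 3.51 in the other regions. Of 5 platelet genes, 1 was higher in LA than in V (17.2% of all genes): *Gp1bb*, part of the receptor for von Willebrand factor, at 13.24 ± 0.21 in LA and 10.88 ± 0.30 in LV. The part of this tissue make-up in the leukocyte values was not tested.

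Of the 27 genes called between LA and V, 23 were called under every alternative tried, 10 of 14 for PV against LA, 8 of 12 for SA against LA and 19 of 26 for PA. Every V array lay above every array of the other 4 regions for 14 of the 37 genes, namely all 4 NK cell genes, 5 T cell genes (*Cd3g*, *Cd247*, *Cd2*, *Cd8a* and *Zap70*), *Ptprc*, *Cd68*, *Adgre1*, *Tyrobp* and *Cd74*, against 4.89% of all genes. LA and V did not overlap in 20 genes, against 25.4% of all genes, and LA was the lower region in each but *S100a9*. Every LA array lay below every V array in 12.7% of all genes. The following counts describe genes on the arrays that chose them and are no test. Within each of the 3 slides, all 27 genes called between LA and V kept their direction. Within the first row of the slides 27 did and within the second row 26. For PV against LA, all 14 kept their direction within every slide and row, and for SA against LA 12 did, except on the third slide with 11.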

How the data were processed

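RNA of 23 samples was hybridised to single-colour Agilent arrays. Per the file headers, the deposited scanner intensity (linear scale) had been background-subtracted and detrended within each array by Agilent Feature Extraction 11.0.1.1, without normalization between arrays. The deposited normalized intensity of the authors differs from it by 1 factor per array (within 2% for at least 99.2% of probes) and served as an alternative.

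Control spots were removed, replicate spots averaged, and each array scaled to its 90th percentile. Of 45598 probes, 158 with a missing value were removed. Accessions were named through RefSeq (GRCr8), each gene was given the brightest of its probes per array, and log2(signal + 1) was taken. Genes above 4 on at least 1 array were tested in 1 limma fit (3.58.1, R 4.3.3) of all 23 arrays, tested on simulated data. limma replaced the methods' analysis of variance. The number of arrays limits the precision.

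All 40 members are named, with the 2 genes of each other list with the smallest F-test p among those well above background on every array of their highest region, and genes that mark a region or define a list. A gene of these lists is not reported here. Members and lists were chosen with earlier results of these data known. Alternatives were other scalings, background correction, filters, probe choice, pseudocount, raised dim spots, slide, row and replicate blocks, only the arrays compared, a trended prior, each array left out, and analysis of variance per gene.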

Additional observations from a re-analysis of the deposited data

Results flagged for a closer look

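In groups of 4 arrays, 8 of 185 gene and region groups held 1 array whose gap to the nearest other array took up more of the group's range than a Dixon test at the 95% level allows; chance marks about 1 in 20 groups. *Nkg7* was 9.71 in LA replicate 3 (the other 3 were 9.92 to 9.93). *Lck* and *Marco* were both low in PA replicate 4, at 4.58 (others 5.66 to 5.82) and 4.04 (others 5.41 to 5.53). *Gzmb* was 5.93 in PA replicate 1 (others 5.26 to 5.35), and *Cd163* was 8.92 in LV replicate 1 (others 9.62 to 9.73). *Fcgr1a* was 9.31 in PV replicate 4 (others 9.71 to 9.79), and *Aif1* was 12.23 in LV replicate 4 (others 11.50 to 11.58). *Tlr7* was 2.74 in SA replicate 2 (others 3.28 to 3.29), where no SA array was well above background.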

How the results depend on the processing

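Limits are the 3 or 4 arrays per region, the unknown sharing of animals between samples, and dim probes: 15 of the 37 genes were well above background on only some arrays. Leaving out 1 array in turn gave 30 to 33 genes called over the 6 regions, 21 to 28 for PA against the other regions, 11 to 14 for PV against LA, 9 to 14 for SA against LA, 0 to 2 for PV against SA, 24 to 27 for LA against V and 0 for LV against RV. The count for PV against SA was 0 with the deposited normalized values, with normexp correction and with only the arrays compared, and 2 with a filter that kept genes detected on all arrays of at least 1 region, with a pseudocount of 16 and with a trended prior. The count for LV against RV was 1 with normexp correction. Reversed values were *Cd3e* in PA with dim spots raised to the dimmest signal that passed the background test (0.0094, adjusted p = 0.988), *Cd2* for SA against LA with normexp correction (0.14) and with such dim spots (0.053), and *S100a8* for LA against V with normexp correction (-0.0158), and the cause was not tested. Normexp moved the median of all genes by 0.12 for PV against LA and 0.15 for SA against LA. With the replicate number as a block, 32, 26, 14, 11, 1, 24 and 0 genes were called in the same order of comparisons; only 13 of 55 pairs of same-numbered samples correlated above 0.1 (range -0.38 to 0.32), among them all 4 pairs of LV with PA (0.12 to 0.32), and the numbers were not taken as pairs. The block ended the calls of *Cd8b*, *Lck* and *S100a8* for LA against V and of *S100a9* for SA against LA. Slide as a block gave 30 genes called over the 6 regions and 11 for SA against LA, and row as a block 12 for SA against LA and 13 for PV against LA.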
